A study of Mus musculus with 12 samples.

Results

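The 8 genes described here encode myosin heavy chains, the motor subunits of muscle and nonmuscle myosin, and they were measured in satellite cells of *Cxcr4* WT and *Cxcr4* KO mice. They were taken by name from the 55401 genes of the count table, and the names were *Myh1*, *Myh2*, *Myh3*, *Myh4*, *Myh7*, *Myh8*, *Myh9* and *Myh10*. All 8 passed the filter on low counts, which kept 25771 genes. The genes were chosen by earlier measured values of these libraries, among them the difference in *Myh8* CPM between genotypes in activated cells, so the values of that comparison, and those of *Myh8* between the cell states, are given as a description without a test. Hind limb muscle was the source of the Pax7-ZsGreen+ cells, whose RNA was taken either straight after sorting (quiescent, 4 libraries per genotype) or after overnight culture (activated, 2 libraries per genotype). All 12 libraries came from mice with the CXCR4 FL/FL allele, the Pax7-ZsGreen reporter, and tamoxifen at 80 mg/kg for 5 days. *Cxcr4* KO mice also carried Pax7-creERT2, which is driven by the promoter of the satellite cell gene *Pax7*, whereas *Cxcr4* WT mice had no cre. Mice were adult, and the methods count samples as independent mice, although the labels do not tie each library to a mouse. If some libraries share a mouse, p-values measure technical spread in part.

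A sarcomere pulls through thick filaments of myosin, in which heavy chains carry the motor and light chains brace its neck. Each adult fibre type is known by its heavy chain. *Myh4* (MyHC-IIb), *Myh1* (MyHC-IIx) and *Myh2* (MyHC-IIa) are those of fast fibres, and *Myh7* is that of slow fibres and is also a cardiac chain. *Myh3* (embryonic) and *Myh8* (perinatal) are made in developing and regenerating muscle. *Myh9* and *Myh10* encode the heavy chains of nonmuscle myosin IIA and IIB, which power cell shape, adhesion and division. Satellite cells are the stem cells of muscle, and sarcomeric chains are products of fibres and differentiating cells rather than of quiescent satellite cells.

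On GRCm38, with GENCODE M21 gene models, *Myh3*, *Myh2*, *Myh1*, *Myh4* and *Myh8* lie in this order on the plus strand of chromosome 11, between 67078300 and 67308634, a span of 230.3 kb. *Myh3* is 68735 bases away from *Myh2*, and *Myh2* and *Myh1* are separated by 2534 bases. *Myh10* lies on the same chromosome from 68691559 to 68816632, *Myh7* on the minus strand of chromosome 14 from 54970684 to 54994626, and *Myh9* on the minus strand of chromosome 15 from 77760587 to 77842175. The promoters of the 4 neighbours *Myh2*, *Myh1*, *Myh4* and *Myh8* are shown because the first 3 of these genes rose together in activated cells while *Myh8*, next to them, was lower in activated WT and higher in activated KO libraries. RefSeq promoter entries (GRCm38.p6) were found for all 8 genes, and the 250 bases before the RefSeq start are printed from 5′ to 3′ on the plus strand, with capitals for a 14-base run that the 4 promoters have in common and for matches to the MEF2 consensus. MEF2 proteins are transcription factors of muscle.
Myh2 promoter, chr11:67170777-67171026: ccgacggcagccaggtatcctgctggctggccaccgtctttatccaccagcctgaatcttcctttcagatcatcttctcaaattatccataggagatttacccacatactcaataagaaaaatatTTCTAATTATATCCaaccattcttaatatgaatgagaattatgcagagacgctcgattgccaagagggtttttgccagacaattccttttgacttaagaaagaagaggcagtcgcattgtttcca
Myh1 promoter, chr11:67199852-67200101: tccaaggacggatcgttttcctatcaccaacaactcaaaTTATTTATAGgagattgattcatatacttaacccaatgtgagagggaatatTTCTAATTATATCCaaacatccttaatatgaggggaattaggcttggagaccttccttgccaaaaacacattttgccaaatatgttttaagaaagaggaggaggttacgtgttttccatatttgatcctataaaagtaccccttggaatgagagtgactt
Myh4 promoter, chr11:67237562-67237811: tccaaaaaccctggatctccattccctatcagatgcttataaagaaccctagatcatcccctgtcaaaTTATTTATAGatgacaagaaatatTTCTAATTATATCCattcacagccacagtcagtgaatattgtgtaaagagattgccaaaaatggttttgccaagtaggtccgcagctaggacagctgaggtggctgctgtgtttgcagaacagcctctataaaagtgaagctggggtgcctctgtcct
Myh8 promoter, chr11:67276874-67277123: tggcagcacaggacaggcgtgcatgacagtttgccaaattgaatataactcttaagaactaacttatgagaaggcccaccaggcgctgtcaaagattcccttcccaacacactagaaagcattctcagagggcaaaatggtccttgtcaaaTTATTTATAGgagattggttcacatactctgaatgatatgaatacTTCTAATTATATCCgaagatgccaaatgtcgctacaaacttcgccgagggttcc
The common run, TTCTAATTATATCC, began 125 bases before the start in *Myh2*, 160 in *Myh1*, 158 in *Myh4* and 54 in *Myh8*. On both strands it was found in 4 of 32851 promoters (0.0122%), which are these 4, and it was chosen for being common to them. *Myh1*, *Myh4* and *Myh8* had a MEF2 consensus match, and 2.92% of all promoters had one. The MEF2 match contains TATAAA on the other strand, so that both motifs were counted there, and TATAAA was present in 12.4% of all promoters. *Myh3*, *Myh7*, *Myh9* and *Myh10* held neither the common run nor the MEF2 consensus in this window. The E-box CANNTG, the motif of MYOD family factors, was present in 66.2% of all promoters and in *Myh4* and *Myh8* among the 4 shown. These matches describe letters only, and binding was not measured.

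The coding sequences of the chains are alike, which bears on how reads were assigned. Among *Myh1*, *Myh2*, *Myh4* and *Myh8* the identity of aligned coding bases ranged from 87.9% for *Myh4* and *Myh8* to 91.0% for *Myh1* and *Myh2*. *Myh9* and *Myh10* were 74.1% identical to each other. Identity between a sarcomeric chain and either nonmuscle chain was between 53.0% and 56.1%. The longest run shared by 2 of the 8 coding sequences was 268 bases long, from coding base 2711 to 2978 of *Myh1* and identical in *Myh2*. It is printed because reads from it could belong to either gene.
Myh1 and Myh2 shared coding run: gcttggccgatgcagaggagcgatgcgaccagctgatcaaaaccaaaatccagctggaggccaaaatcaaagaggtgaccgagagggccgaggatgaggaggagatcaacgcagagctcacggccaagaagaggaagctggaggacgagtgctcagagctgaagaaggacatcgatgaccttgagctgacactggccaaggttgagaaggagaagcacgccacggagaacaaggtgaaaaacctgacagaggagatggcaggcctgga
Of all 150-base windows of the coding sequence, the length of 1 sequenced read end, 4.58% in *Myh1*, 2.17% in *Myh2*, 0.529% in *Myh4*, 1.70% in *Myh8* and 0.317% in *Myh3* also occurred in another gene. The share was 6.98% in *Myh7*, whose closest copy is the neighbouring cardiac gene *Myh6*. No such window was found in *Myh9* or *Myh10*. How reads with several matches were counted, and whether strand was used, is not given in the sources used here. Antisense transcripts overlap exons of *Myh1* (*Myhas*), *Myh2* (*9430073C21Rik*) and *Myh7* (*Mhrt* and others), and reads of such pairs cannot be told apart without strand. *Myhas* covers 8.11% of the exon bases of *Myh1* and had 178 counts in all libraries together, beside 12089 for *Myh1*.

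Libraries of quiescent cells held 12775593 to 23717013 counts and those of activated cells 3172164 to 5427280. *Cxcr4*, the targeted gene, ranged from 59.1 to 112 CPM in quiescent WT libraries and from 12.5 to 21.2 CPM in quiescent KO libraries. In activated cells it was at 33.3 and 14.5 CPM in WT and at 5.39 and 13.7 CPM in KO. CPM are counts scaled to a common library size, with TMM factors. A ribosomal RNA-like transcript took under 1% of counts in each quiescent library, but 12.6% and 40.3% in activated WT replicates 1 and 2 and 11.5% and 28.8% in activated KO replicates 1 and 2. The states also differed in sex-linked transcripts. *Xist*, which is made in female cells, was at 1.20 to 7.17 CPM in quiescent and 451 to 817 CPM in activated libraries, and 4 Y-linked genes had 6363 to 13973 counts in quiescent but 0 to 11 in activated libraries. Cell state and sex therefore cannot be told apart in any comparison of activated with quiescent cells.

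In quiescent cells *Myh9* had the highest level of the 8 chains, and the chains of adult fibres were present beside it. Levels of different genes are compared as CPM per kb of exon sequence. In quiescent WT cells *Myh9* was at 35.0 ± 4.49 CPM per kb (SD, n = 4), above every library of the next gene, *Myh4*, at 8.98 ± 7.77 CPM per kb. *Myh1* followed at 5.76 ± 3.41, *Myh10* at 5.44 ± 0.365, *Myh2* at 3.00 ± 0.267, *Myh7* at 2.87 ± 2.21, *Myh3* at 0.886 ± 0.539 and *Myh8* at 0.404 ± 0.168 CPM per kb (SD, n = 4 each). Neighbours in this order overlapped between libraries, except *Myh9* with *Myh4* and *Myh10* with *Myh2*. The order was the same in quiescent KO cells, from *Myh9* at 33.8 ± 7.50 to *Myh8* at 0.168 ± 0.0480 CPM per kb (SD, n = 4), and there only *Myh9* and *Myh4* did not overlap. The order below *Myh4* depended on the length used. Per kb of the longest transcript, *Myh10* (7.30) was above *Myh1* (6.02) and *Myh7* (3.97) above *Myh2* (3.52) in quiescent WT cells, whereas the quiescent KO order stayed as given. The nonmuscle pair made up 43.2% to 81.3% of the summed CPM per kb of the 8 chains in quiescent libraries and the 4 adult chains 17.3% to 55.2%. The adult chains exceeded the nonmuscle pair in WT replicate 3, with 50.1% against 47.7%, and in KO replicate 2, with 55.2% against 43.2%.

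**Figure D1:**
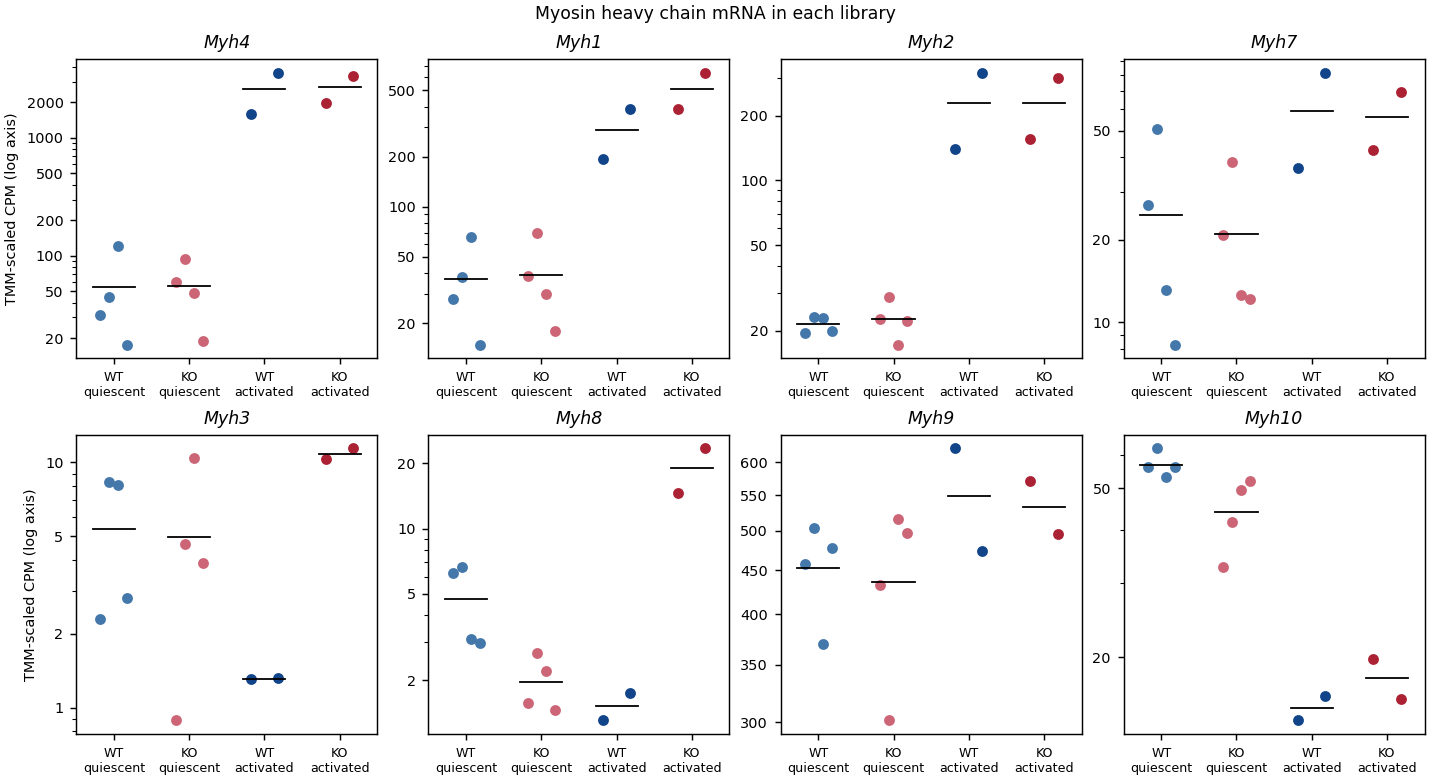
TMM-scaled CPM of each myosin heavy chain, 1 panel per gene with its own log axis, for the 4 groups. Points are libraries and lines are group means. *Myh4*, *Myh1* and *Myh2* lie higher in every activated library than in any quiescent one, *Myh10* lies lower, and *Myh8* is highest in both activated KO libraries. *Myh3* has its highest group mean in activated KO, at 10.3 and 11.4 CPM, but quiescent KO replicate 3 lies between these, at 10.4 CPM.

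The quiescent libraries differed widely in fibre chains within each genotype. *Myh4* was at 31.7, 44.6, 122 and 17.6 CPM in WT replicates 1 to 4 and at 59.8, 93.9, 48.5 and 19.0 CPM in KO replicates 1 to 4. Replicate 3 was the highest of WT and replicate 2 the highest of KO, and the genotypes overlapped. *Myh1* moved with it, at 27.9, 37.9, 65.8 and 14.8 CPM in WT and 38.3, 69.1, 29.8 and 18.0 CPM in KO. Over the 8 quiescent libraries, the log2 CPM of *Myh1* and *Myh4* had a Pearson correlation of 0.97. This is a description, and its points share depth and scaling. *Myh7* ranked the WT libraries differently, and the KO libraries alike, with 26.8, 50.7, 13.1 and 8.28 CPM in WT and 20.8, 38.3, 12.5 and 12.2 CPM in KO, so that replicate 2 was highest in both genotypes. *Myh2* was more even, at 19.6, 23.3, 22.8 and 19.9 CPM in WT and 22.7, 28.6, 17.2 and 22.2 CPM in KO. Fast fibre transcripts were present in the same libraries. The summed CPM of 15 tested genes of mature fast fibres, among them *Ckm*, *Acta1* and *Mylpf*, was 361 to 823 in quiescent WT and 462 to 1156 in quiescent KO libraries, and its part in the levels of the heavy chains was not tested. In bulk RNA, a change in the number of cells of a type and a change in RNA per cell cannot be told apart.

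The comparison of KO with WT in quiescent cells asked whether loss of CXCR4 changes transcripts before activation. None of the 8 chains passed the test (edgeR), at a background of 0.0155% of all genes called, and DESeq2 called none of them either. At an unadjusted p under 0.05, which 1.74% of all genes passed, there was 1 chain, *Myh8*. It was at 6.27, 6.67, 3.11 and 2.99 CPM in WT and at 1.57, 2.67, 2.20 and 1.46 CPM in KO. Every KO library was below every WT library, with a log2 fold change of -1.27 (SE 0.38, unadjusted p = 0.00351, adjusted p = 1), which did not pass. *Myh10* was also below WT in every KO library, at 32.6, 41.7, 49.6 and 52.1 CPM against 56.0, 62.2, 53.1 and 56.2 CPM. Its log2 fold change was -0.37 (SE 0.20, unadjusted p = 0.0828, adjusted p = 1). These 2 of 8 chains whose libraries did not overlap compare with 1.7% of all genes tested. The other log2 fold changes were 0.08 for *Myh1* (SE 0.40), 0.08 for *Myh2* (SE 0.26), -0.11 for *Myh3* (SE 0.54), 0.03 for *Myh4* (SE 0.48), -0.24 for *Myh7* (SE 0.45) and -0.05 for *Myh9* (SE 0.21). For the fibre chains the standard error was larger than the difference.

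In activated WT cells the 3 fast chains rose and *Myh10* fell. Of the 7 chains other than *Myh8*, 3 were called higher and 1 lower, at a background of 26.2% of all genes called (9.65% higher and 16.5% lower). The median gene had a log2 fold change of -0.92 in this comparison and -0.96 in KO cells, against which the values below can be read. *Myh4*, the chain of the fastest fibres, was at 1609 and 3574 CPM in activated WT replicates 1 and 2, against at most 122 CPM in quiescent WT. This was a log2 fold change of 5.58 (SE 0.61, adjusted p = 1.31e-06), or 47.9-fold. *Myh2* was at 141 and 317 CPM and rose by a log2 fold change of 3.41 (SE 0.31, adjusted p = 1.54e-07). *Myh1* was at 194 and 387 CPM, a log2 fold change of 2.98 (SE 0.47, adjusted p = 7.34e-05). In each case both activated libraries were above all 4 quiescent ones, and replicate 2 had the higher value. Libraries of the states did not overlap for 5 of these 7 chains in WT, beside 56% of all genes, and for 5 of 7 in KO, beside 54.4%.

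Activated KO cells gave the same direction for these chains. There 4 of the 7 chains other than *Myh8* were called higher and 1 lower, at a background of 29.6% (11.1% higher and 18.5% lower). *Myh4* was at 1989 and 3374 CPM, a log2 fold change of 5.60 (SE 0.61, adjusted p = 1.11e-06). *Myh2* was at 156 and 301 CPM, with 3.34 (SE 0.31, adjusted p = 1.62e-07). *Myh1* was at 385 and 639 CPM, with 3.72 (SE 0.48, adjusted p = 6.73e-06). Again replicate 2 was the higher of the pair, and no activated library overlapped a quiescent one. The libraries numbered 2 were also those with the larger share of the ribosomal RNA-like transcript, and its part in the result was not tested. Leaving out each library in turn kept the log2 fold change of *Myh4* at 4.96 or more in WT and at 5.18 or more in KO, the lowest values being those without activated replicate 2.

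*Myh7*, the slow chain, was at 36.6 and 81.5 CPM in activated WT and at 42.6 and 69.4 CPM in activated KO cells. The WT values overlapped quiescent replicate 2, and the log2 fold change of 1.24 (SE 0.54, adjusted p = 0.0896) did not pass. In KO cells the log2 fold change of 1.42 (SE 0.54, adjusted p = 0.0477) passed narrowly. That call was lost without quiescent KO replicate 1, 3 or 4 (adjusted p = 0.0733, 0.101 and 0.0895), without activated KO replicate 2 (adjusted p = 0.312), and with DESeq2 (adjusted p = 0.132), and the adjusted p ranged from 0.0117 to 0.312 over the fits without 1 library. In WT cells it was gained without quiescent replicate 2 (adjusted p = 0.00854) or activated replicate 1 (adjusted p = 0.0346). Whether the change differed between genotypes was not tested.

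**Figure D2:**
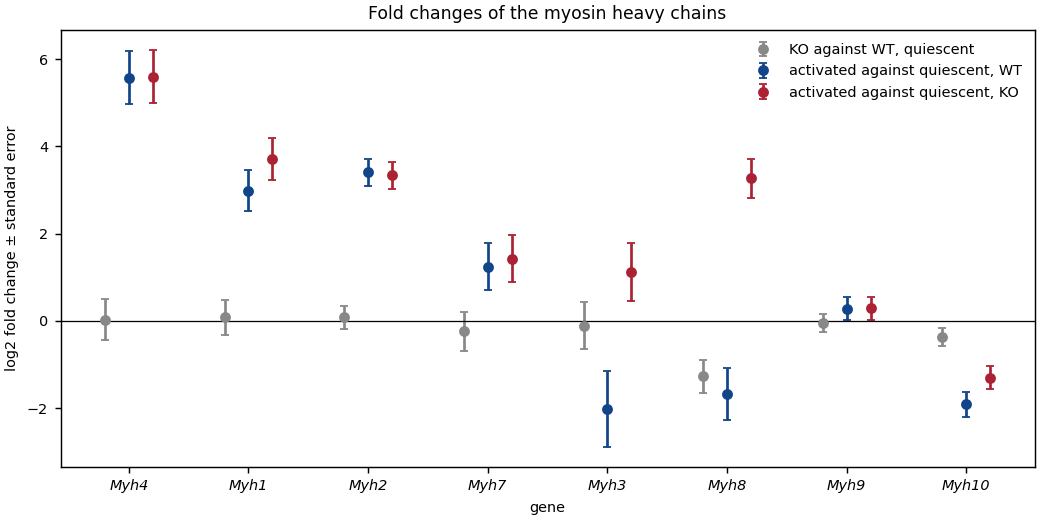
Log2 fold change of each myosin heavy chain with its standard error as bar, for KO against WT in quiescent cells and for activated against quiescent cells in each genotype. In both genotypes *Myh4* lies highest, at 5.58 and 5.60, and *Myh8* has opposite signs in the activated against quiescent comparisons, with -1.68 in WT and 3.27 in KO.

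The nonmuscle chains behaved differently from the fibre chains and from each other. *Myh10* was at 14.2 and 16.2 CPM in activated WT and at 19.8 and 16.0 CPM in activated KO cells, below the lowest quiescent value of 32.6 CPM. It fell by 1.91 on the log2 scale in WT (SE 0.29, adjusted p = 4.11e-05) and by 1.30 in KO (SE 0.27, adjusted p = 0.00106). *Myh9* was at 458, 504, 370.1 and 478 CPM in quiescent WT and at 623 and 474 CPM in activated WT libraries. In KO it was at 432, 302, 516 and 498 CPM in quiescent and 572 and 496 CPM in activated libraries. Its log2 fold changes were 0.28 in WT (SE 0.26, adjusted p = 0.401) and 0.29 in KO (SE 0.26, adjusted p = 0.376), and the states overlapped in both genotypes. The ratio of *Myh9* to *Myh10*, both per kb, was 5.64 to 10.7 in quiescent and 23.4 to 35.5 in activated libraries, with no overlap.

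The developmental chains were few in reads. *Myh3*, the embryonic chain, was at 2.30, 8.30, 8.07 and 2.79 CPM in quiescent WT and 0.887, 4.65, 10.4 and 3.87 CPM in quiescent KO libraries. In activated cells it was at 1.31 and 1.31 CPM in WT, from 8 and 3 counts, and at 10.3 and 11.4 CPM in KO, from 40 and 50 counts. Activated WT cells were below every quiescent WT library, but the log2 fold change of -2.02 (SE 0.87, adjusted p = 0.0844) did not pass. In KO the change from quiescent to activated cells was 1.12 (SE 0.66, adjusted p = 0.185), and replicate 3 of the quiescent cells lay within the activated range. *Myh8*, the perinatal chain, was at 1.31 and 1.75 CPM in activated WT, from 8 and 4 counts, and at 14.6 and 23.5 CPM in activated KO, from 57 and 103 counts. Activated WT libraries were below all quiescent WT libraries, with a log2 fold change of -1.68, whereas activated KO libraries were above all quiescent KO libraries, with a log2 fold change of 3.27.

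The values of KO and WT in activated cells are set side by side as a description, since this comparison was known when the genes were chosen. *Myh8* had a log2 fold change of 3.69, or 12.9-fold, and *Myh3* of 3.04, or 8.23-fold, with both KO libraries above both WT libraries. The threshold was passed by 0.0504% of all genes and by 1 of the 8 chains, *Myh8*, from which nothing is read because that value chose it. Libraries did not overlap in these 2 of 8 chains, a share near the 24.7% of all genes. *Myh1* had a log2 fold change of 0.82, and the values of 385 CPM in KO replicate 1 and 387 CPM in WT replicate 2 met. The values for the others were 0.00 for *Myh2*, 0.05 for *Myh4*, -0.06 for *Myh7*, -0.04 for *Myh9* and 0.24 for *Myh10*. Per 1000 CPM of the fast fibre genes, *Myh8* was at 0.177 and 0.106 CPM in activated WT and 1.48 and 1.30 CPM in activated KO libraries. In quiescent cells the same ratio was 4.87 to 9.70 in WT and 2.31 to 3.17 in KO.

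The composition of the adult chains was set out per kb, as the share of each in the sum of *Myh1*, *Myh2*, *Myh4* and *Myh7*. *Myh4* made up 30.0% to 57.4% in quiescent libraries, 83.1% and 83.8% in activated WT and 79.1% and 78.8% in activated KO libraries. *Myh7* made up 4.30% to 26.1% in quiescent and 1.13% to 1.33% in activated libraries. The share of *Myh1* was 25.9% to 31.2% in quiescent libraries, 9.47% and 8.59% in activated WT, and 14.5% and 14.1% in activated KO libraries. Activated libraries of 1 genotype thus differed by less than 1 percentage point in *Myh4* and in *Myh1*. The ratio of *Myh4* to *Myh1* per kb was 1.11 to 1.96 in quiescent libraries, 8.78 and 9.76 in activated WT and 5.46 and 5.58 in activated KO. Between genotypes in activated cells these shares are a description of 2 libraries each.

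**Figure D3:**
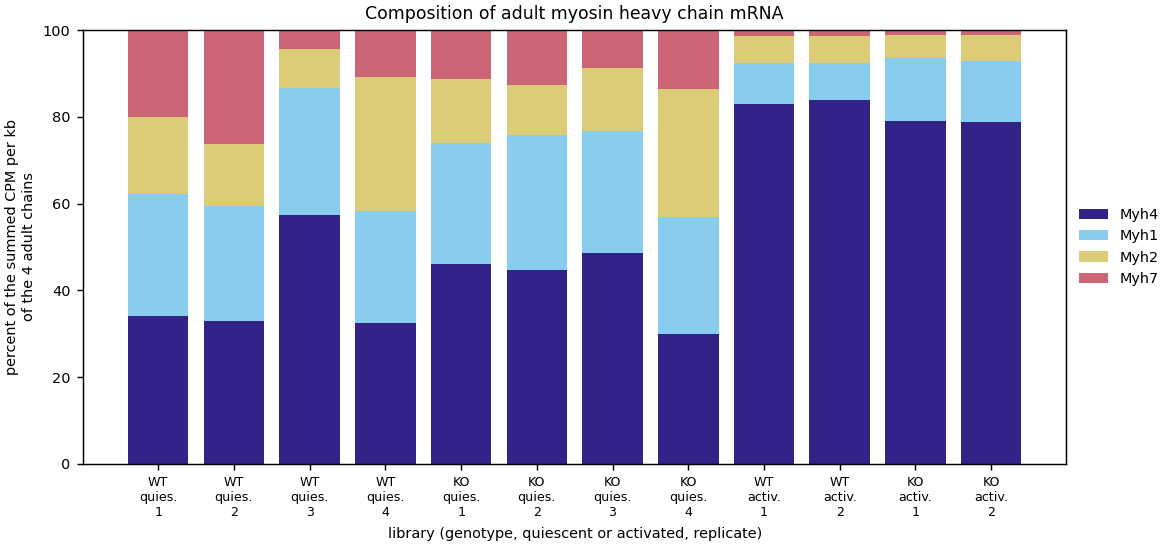
Share of each adult chain in the summed CPM per kb of *Myh1*, *Myh2*, *Myh4* and *Myh7*, as stacked bars that reach 100%, for each of the 12 libraries. *Myh4* takes 30.0% to 57.4% in quiescent and 78.8% to 83.8% in activated libraries, and *Myh7* is at most 1.33% in activated libraries.

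Summed over the 8 chains, quiescent libraries held 52.1 to 70.7 CPM per kb and activated libraries 372 to 755 CPM per kb. The order in activated WT was *Myh4* at 431 ± 231, *Myh1* at 45.7 ± 21.5, *Myh9* at 42.4 ± 8.15, *Myh2* at 32.1 ± 17.5, *Myh7* at 6.85 ± 3.68, *Myh10* at 1.45 ± 0.135, *Myh3* at 0.216 ± 0.000817 and *Myh8* at 0.130 ± 0.0267 CPM per kb (SD, n = 2 each). *Myh9* overlapped both *Myh1* and *Myh2* there. In activated KO the order was *Myh4* at 446 ± 163, *Myh1* at 80.6 ± 28.3, *Myh9* at 41.3 ± 4.16, *Myh2* at 32.0 ± 14.3, *Myh7* at 6.50 ± 2.19, *Myh3* at 1.79 ± 0.133, *Myh10* at 1.71 ± 0.258 and *Myh8* at 1.62 ± 0.532 CPM per kb (SD, n = 2 each). *Myh9* with *Myh2*, and *Myh3*, *Myh10* and *Myh8* as neighbours, did not differ beyond their spread. The FPKM that the authors deposited for each group were 0.966 to 1.04 times these levels. Per kb of the longest transcript, 15 of the 32 levels of the 4 groups moved by more than 1 SD of the libraries. *Myh9* was then above *Myh1* in activated WT, at 73.8 against 47.7 CPM per kb, and *Myh8* above *Myh3*, at 0.249 against 0.217. In activated KO *Myh8*, at 3.10 CPM per kb, was above *Myh10* (2.29) and *Myh3* (1.80).

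Genes of fast fibres rose, as *Myh4*, *Myh1* and *Myh2* did. All 15 tested genes of the fast fibre list were called higher in activated cells of both genotypes, with a median log2 fold change of 4.58 in WT and 4.48 in KO, and their summed CPM was 7401 and 16560 in activated WT and 9906 and 18130 in activated KO libraries. Relative to that sum, *Myh4* was at 48.7 to 191 per 1000 CPM in quiescent WT and at 217 and 216 in activated WT libraries. For KO the ratio was 41.1 to 110 before activation and 201 and 186 after it. The states thus did not overlap within a genotype. Across genotypes, activated KO replicate 2 (186) lay below quiescent WT replicate 3 (191). Of 8 slow fibre genes, 1 was called higher in WT and 5 in KO. Their summed CPM was 463 and 597 in activated WT against 565 to 743 in quiescent WT. For KO the sum was 504 and 613 after activation against 490.4 to 853 before it. Most of this sum was *Atp2a2*, with a mean of 557.3 CPM for quiescent cells of either genotype. Its mean after activation was lower, 404.7 CPM for WT and 372.2 CPM for KO, and neither change was called. The other slow fibre genes all had positive log2 fold changes, apart from *Tnni1* in WT (-0.78). Of 10 satellite cell genes, 8 were called lower in WT and 9 in KO. *Pax7*, the defining transcription factor, was at 71.2 to 130 CPM in activated libraries. In quiescent libraries it was at 303 to 482 CPM in WT and 181 to 290 CPM in KO. That difference between genotypes, a log2 fold change of -0.67 (SE 0.23), did not pass. *Pax7* was thus present in all libraries. The part of fibre transcripts in the values of the heavy chains was not tested.

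**Figure D4:**
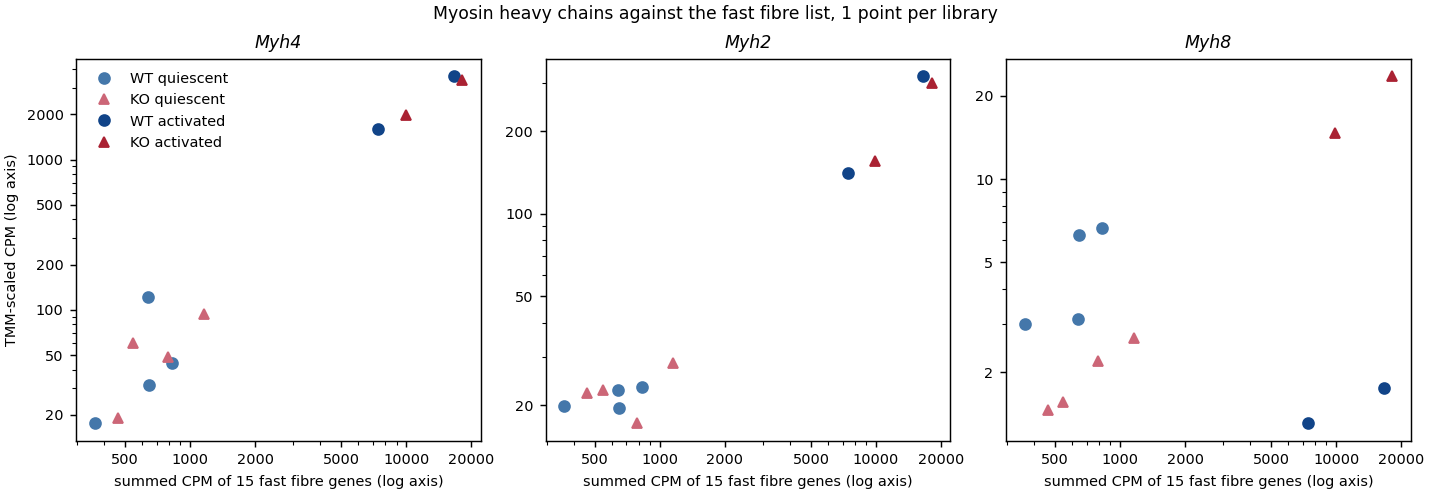
CPM of *Myh4*, *Myh2* and *Myh8* against the summed CPM of 15 fast fibre genes, both on log axes, with 1 point per library and groups by colour and shape. *Myh4* and *Myh2* are high where the fast fibre sum is high, and at the highest sums the 2 activated WT libraries have *Myh8* under 2 CPM while the 2 activated KO libraries have 14.6 and 23.5 CPM.

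Partners of the heavy chains were followed by lists, and in the counts below only genes that were called are said to rise or fall. Of 10 sarcomeric light chain genes and kinases, 4 rose and 2 fell in each genotype (median log2 fold change 0.55 in WT and 0.31 in KO). The fast light chains *Mylpf* and *Myl1* had log2 fold changes of 5.76 (SE 0.47, adjusted p = 4.89e-08) and 5.31 (SE 0.44, adjusted p = 5.62e-08) in WT, and 5.90 and 5.94 in KO. *Mylk4*, a myosin light chain kinase gene, had 3.69 (SE 0.60) in WT and 3.36 (SE 0.60) in KO. *Myl7*, the atrial light chain, fell from 24.4 ± 19.5 CPM (SD, n = 4) to 0.980 ± 1.39 CPM (SD, n = 2) in WT. In KO it was at 0 counts in both activated libraries.

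Of 10 thick filament genes, 6 rose and 1 fell in WT and 7 rose and 1 fell in KO (median 2.01 and 2.26). *Ttn*, the giant spring of the sarcomere, rose by a log2 fold change of 4.94 (SE 0.36, adjusted p = 2.39e-08) in WT and 5.09 (SE 0.37) in KO. *Mybpc2*, the fast myosin-binding protein C, had 5.27 in WT and 4.22 in KO, and the M-band gene *Myom2* had 3.76 and 3.97. The 1 gene that fell was *Mybpc3*, the cardiac form, with 10.7 ± 8.73 CPM in quiescent WT, 8.34 ± 5.51 CPM in quiescent KO, and 0 counts in all activated libraries. Of 9 tested genes for folding, assembly and turnover of myosin, 3 rose and 1 fell in WT and 4 rose and 1 fell in KO. *Smyd1*, a chaperone partner of muscle myosin, had log2 fold changes of 3.47 in WT and 3.60 in KO, and *Trim54* and *Trim63*, sarcomere ubiquitin ligases, had 3.66 and 3.13 in WT and 3.83 and 4.49 in KO. The myosin chaperone gene *Unc45a* fell by 2.13 on the log2 scale in WT and by 2.08 in KO.

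Several nonmuscle partners fell, as *Myh10* did. Of 13 nonmuscle light chains and regulators, none rose and 6 fell in WT and 5 in KO (median log2 fold change -1.30 and -0.79). *Mylk*, the myosin light chain kinase of smooth muscle, was at 143 ± 63.0 CPM in quiescent and 18.2 ± 14.0 CPM in activated WT cells, and *Myl9* at 166 ± 73.8 and 31.2 ± 21.9 CPM. Markers of smooth muscle and pericytes also fell, 6 of 10 in WT and 8 of 10 in KO, with summed CPM of 1487 to 2760 in quiescent and 226 to 428 in activated libraries, and their part in the result was not tested. Among 6 tested further heavy chain genes, 3 fell in each genotype and none rose. *Myh11*, the smooth muscle chain, fell from 179 ± 90.9 to 18.5 ± 18.7 CPM in WT and from 159.7 ± 64.3 to 5.16 ± 0.764 CPM in KO. *Myh14*, the third nonmuscle chain, fell by 3.29 on the log2 scale in WT (SE 0.39, adjusted p = 2.84e-06) and by 2.19 in KO (SE 0.35, adjusted p = 6.51e-05). *Myh15* was at 0 counts in all activated libraries. *Myh6*, given for the sequence it shares with *Myh7*, did not pass, with 41.1 ± 35.7 and 10.3 ± 5.94 CPM in quiescent and activated WT cells.

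Genes of early muscle differentiation were mixed. Of 18, 5 rose and 3 fell in WT and 6 rose and 3 fell in KO (median log2 fold change -0.76 and 0.81). *Acta1*, skeletal actin, rose by a log2 fold change of 3.93 in WT (SE 0.41, adjusted p = 8.21e-07) and 4.00 in KO (SE 0.41). *Myf6*, a myogenic factor of fibres, had 3.32 in WT and 5.59 in KO, and *Sln*, sarcolipin of the calcium pump, 3.04 and 7.23. *Myl4*, an embryonic and atrial light chain, fell from 32.9 ± 20.0 CPM (SD, n = 4) in quiescent to 2.57 ± 0.531 CPM (SD, n = 2) in activated WT cells and from 25.6 ± 10.7 to 8.36 ± 5.28 CPM in KO. Of endothelial, fibroadipogenic progenitor and blood cell markers, 4 of 10 each were called lower in activated WT, and 6 of 8 Schwann cell markers. In activated KO cells the counts were 3, 4, 6 and 6, in the same order. Beside these, 16.5% of all genes were called lower in WT and 18.5% in KO. Only 1 of these markers was called higher, the fibroadipogenic *Pdgfra* in KO. Its log2 fold change was 2.04 (SE 0.44, adjusted p = 0.00125). No list gene was called for KO against WT by edgeR in either state. Among 136 distinct list genes tested, 4 in quiescent and 16 in activated cells had an unadjusted p under 0.05 (2.94% and 11.8%, beside 1.74% and 8.37% of all genes). DESeq2 called 0 and 1 of them, beside 5 and 147 of all genes. Because the lists were chosen with earlier results of these data known, nothing is read from these shares and calls.

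Genes whose log2 CPM followed a heavy chain most closely were sought among 12861 genes over the 12 libraries, of which 8 were quiescent and 4 activated, so that likeness mostly reflects the state. *Myh4* was most like *Mylpf* (Pearson r = 0.991), *Tnnt3* (0.988) and *Atp2a1* (0.988), and *Myh2* most like *Tcap* (0.994), *Rpl3l* (0.993) and *Cmya5* (0.991). *Myh7* was most like *Myl3* (0.970), *Tnnc1* (0.967) and *Alpk2* (0.944), of which the first 2 are parts of the slow fibre sarcomere. *Myh8* had no such close partner, with *Reep5* (0.886), *S100a1* (0.865) and *Casr* (0.861) at the top. Over the 8 quiescent libraries alone, *Myh7* was most like *Smyd1* (0.986), *Myl3* (0.983) and *Mybpc3* (0.978). There *Myh4* was most like *Rpa2* (0.975), *Myh1* (0.975) and *Ift46* (0.971), of which *Rpa2* acts in DNA replication and *Ift46* in cilia. These correlations share library, depth and scaling and carry no test.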

How the data were processed

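Libraries of polyA RNA from sorted Pax7-ZsGreen+ cells were sequenced with paired reads. According to the labels and methods, the authors trimmed reads with Trim Galore 0.6.0, mapped them with STAR 2.7.2a to GRCm38.p6 (mm10) and counted them per GENCODE gene with Rsubread. The deposited counts are raw whole numbers for 12 libraries, and the authors also deposited FPKM, 1 value per group, without a stated error. The authors' own comparisons used DESeq2 1.34.0, and none of their fold changes or p-values were used. Groups came from the sample titles.

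Genes were kept by edgeR's filterByExpr and scaled by TMM. The 4 group means were modelled over all 12 libraries with edgeR 4.0.16 in R 4.3.3, tested by the quasi-likelihood F test and adjusted by Benjamini-Hochberg over 25771 genes. Genes were called where the adjusted p-value was under 0.05, the log2 fold change was beyond 1 in either direction and the mean normalized count of both groups together was over 10. Standard errors were taken from the fold change and F. Log2 CPM for correlations used a prior count of 2, among genes with an average over 1. Exon lengths came from merged GENCODE M21 exons, an older release than the one the authors used, and coding sequences were aligned with MAFFT 7.526. Precision is limited by depth, which was 3172164 to 5427280 counts in activated libraries.

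The 8 genes and all gene lists were chosen with earlier results of these data known. In lists other than cell type markers, named genes were at most the 4 with the largest fold changes among those called. *Myh6*, which was not called, is the exception. Cell type markers, slow and fast fibre genes included, were named outside this rule. Genes like a member were the 3 with the highest correlation. Alternatives were DESeq2 1.42.0, no filter on low counts, a mean count of at least 10, DESeq2's size factors within edgeR, edgeR on the compared groups, the adjusted p-value alone, the replicate number as a block, leaving out each library, the longest transcript as the length, and the deposited FPKM.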

Additional observations from a re-analysis of the deposited data

Results flagged for a closer look

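*Myh8* moved in opposite directions in the genotypes. From quiescent to activated cells its log2 fold change was -1.68 in WT, with both activated libraries below all 4 quiescent ones, and 3.27 in KO, with both above. KO against WT was -1.27 in quiescent cells, with every KO library lower, and 3.69 in activated cells, with every KO library higher. The quiescent difference did not pass. Between states, libraries did not overlap for 56% of all genes in WT and 54.4% in KO. Between genotypes this held for 1.7% of all genes in quiescent and 24.7% in activated cells. The median gene changed by -0.92 in WT and -0.96 in KO between states. The difference between the *Myh8* effects was not tested, because the contrast of activated cells was known when the genes were chosen. The activated WT values rest on 8 and 4 counts.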

How the results depend on the processing

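No called change turned direction under any alternative tried. Differences between KO and WT that were not called took either sign when 1 library was left out, for *Myh2*, *Myh4*, *Myh7* and *Myh9* in both states and for *Myh1* and *Myh3* in quiescent cells. The calls of *Myh1*, *Myh2*, *Myh4* and *Myh10* between states held in both genotypes under every alternative, those without 1 library included. For KO against WT in activated cells, *Myh8* was the 1 chain called. That call was not kept by every alternative, and nothing is read from it, because this comparison was known when the genes were chosen. The log2 fold change of *Myh8* was 3.61 to 3.68 over 6 alternative fits, beside 3.69 in the main fit. Over all genes, 13 were called in that comparison, against 8 with size factors, 332 without a filter (127 higher and 205 lower), 2 with a mean count of at least 10, 147 with DESeq2 (58 higher and 89 lower) and 3 on the compared groups. Without 1 library the count ran from 0 (without WT replicate 1) to 211 (without WT replicate 2), with 59 without KO replicate 1 and 2 without KO replicate 2. In quiescent cells 4 genes were called for KO against WT, 47 without a filter, and 3 to 7 without 1 library. For activated against quiescent cells, 4481 to 6501 genes in WT and 5020 to 7679 in KO were called without 1 library, the lowest without activated replicate 2 of WT and activated replicate 1 of KO. An arm left with 1 library was assumed to vary like the other groups. Calls of *Myh7* and *Myh3* depended on the alternative: *Myh7* in KO was lost with size factors (adjusted p = 0.0568; 4.02e-05 to 0.132 over the alternatives), *Myh7* in WT was gained without a filter (adjusted p = 0.000423; 0.000423 to 0.155 over the alternatives), and *Myh3* in WT was gained without a filter (adjusted p = 0.0148) and on the compared groups (adjusted p = 0.0491), within a range of 0.0148 to 0.164. *Myh3* in KO was gained without quiescent replicate 3 (adjusted p = 0.0414, of 0.0414 to 0.442 without 1 library).

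Deviations of same-numbered WT and KO libraries correlated at 0.24, 0.16, -0.27 and 0.59 for quiescent replicates 1 to 4 and at -0.07 in activated cells. Of the WT libraries only quiescent replicate 4 correlated best with the KO library of its own number, and the numbers were not taken to pair the samples. With 2 libraries per group, the activated deviations mirror each other, so both replicates give 1 value, which cannot decide on pairing. Total counts of quiescent WT and KO lay close in replicate 1 (17532019 and 17238391), 2 (12775593 and 13075208), 3 (23058947 and 22897189) and 4 (22785815 and 23717013). Quiescent WT and KO replicate 4 were the most alike of all libraries (r = 0.984). Whether same-numbered libraries share a batch was not tested. With the replicate number as a block, 23 genes were called for KO against WT in activated cells, *Myh7* in KO had a log2 fold change of 0.78 and was not called, and *Myh3* in KO was called, with 1.92 (adjusted p = 0.0207). Activated libraries held few reads, so that *Myh3* and *Myh8* there rest on 3 to 103 counts per library.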
